A study of Mus musculus with 2 samples.

Results

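The genes described here were 10 of the 32285 genes in the feature lists of both libraries, taken by their symbols: the hypoxia-inducible factor (HIF) subunits Hif1a, Epas1 and Arnt, the HIF regulators Vhl, Egln1 and Egln3, and the HIF target genes Bnip3, Bnip3l, Ankrd37 and Kdm3a. All 10 were found in both libraries, and all 10 had at least 100 unique molecular identifiers (UMIs, each standing for 1 captured transcript) over both, as did 15031 genes in all. The HIF alpha subunits, encoded by Hif1a and Epas1, pair with the beta subunit encoded by Arnt and bind DNA near genes of oxygen supply and glucose use. In oxygenated cells, prolyl hydroxylases of the Egln family mark the alpha subunits, and the ubiquitin ligase that contains the Vhl protein then directs them to breakdown, so HIF activity is set mainly at the protein level. Bnip3 and Bnip3l encode mitochondrial outer membrane receptors that bring mitochondria to autophagosomes, and the loss of mitochondria from maturing red cells depends on Bnip3l.

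The material was whole mouse embryos at embryonic day 9.5, taken apart into cells that were barcoded in droplets with 3′-end chemistry. There was 1 library of wild-type embryos and 1 of Usb1-null embryos, which carried a germline deletion of exons 1 and 2 of Usb1, the gene of a nuclease that shortens the U6 spliceosomal RNA. The number of embryos behind a library was not stated in the sources used here, and the sample labels call the material nuclear RNA although cells were suspended whole. The comparison asked how cells of Usb1-null embryos differed from wild-type cells of the same kind.

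With 1 library per genotype, no difference below has a replicate check and no test was run. Ratios are Usb1-null over wild-type levels in UMIs per 1000000 UMIs of the library (CPM), with 95% intervals that cover counting error only. A 1.5-fold difference in either direction was used as the mark of size. The wild-type library held 21732106 UMIs in 15161 kept cells and the Usb1-null library 33383886 UMIs in 13018 kept cells, a median of 1243 and 2299.5 UMIs per cell, and 61 barcodes occurred in both. The libraries also differed in ways that cannot be told apart from genotype. Xist had 53276 wild-type and 26 Usb1-null UMIs, whereas 4 Y-linked genes had 14 and 23463 UMIs together, so the sex of the embryos differed with genotype. Mitochondrial genes took 0.435% of wild-type and 0.191% of Usb1-null UMIs, and ribosomal protein genes took 2.51% and 1.80%. Genes shorter than 5000 bases had a median log2 ratio of -0.21, against 0.03 for genes of 50000 bases or more. Primitive erythroid-like cells made up 3.94% of wild-type and 1.45% of Usb1-null cells, and yolk sac and hepatic endoderm-like cells 1.40% and 2.58%.

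The HIF complex binds the core motif ACGTG or GCGTG, so the RefSeq promoters of the members (GRCm38.p6, 250 bases before to 50 after the annotated start) were searched for both, on either strand. Of the 10 genes, 8 had an entry. The 3 promoters of the genes that were over 1.5-fold higher in Usb1-null cells are shown first. That of Vhl, whose levels lay within counting error of each other and which held no match, follows. Capitals mark the motif letters.
Bnip3 (chr7:138909457-138909756, minus strand): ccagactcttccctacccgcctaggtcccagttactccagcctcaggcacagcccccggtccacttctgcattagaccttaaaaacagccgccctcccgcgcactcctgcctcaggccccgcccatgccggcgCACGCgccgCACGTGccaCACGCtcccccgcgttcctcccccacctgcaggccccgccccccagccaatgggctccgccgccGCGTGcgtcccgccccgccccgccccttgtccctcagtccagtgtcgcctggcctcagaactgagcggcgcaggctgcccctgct
Ankrd37 (chr8:45999801-46000100, minus strand): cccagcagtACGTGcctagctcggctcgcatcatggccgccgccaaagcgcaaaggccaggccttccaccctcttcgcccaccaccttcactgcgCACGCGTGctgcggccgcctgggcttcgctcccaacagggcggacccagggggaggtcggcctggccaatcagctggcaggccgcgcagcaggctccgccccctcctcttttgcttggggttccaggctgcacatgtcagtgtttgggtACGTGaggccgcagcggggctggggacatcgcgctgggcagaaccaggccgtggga
Egln3 (chr12:54203825-54204124, minus strand): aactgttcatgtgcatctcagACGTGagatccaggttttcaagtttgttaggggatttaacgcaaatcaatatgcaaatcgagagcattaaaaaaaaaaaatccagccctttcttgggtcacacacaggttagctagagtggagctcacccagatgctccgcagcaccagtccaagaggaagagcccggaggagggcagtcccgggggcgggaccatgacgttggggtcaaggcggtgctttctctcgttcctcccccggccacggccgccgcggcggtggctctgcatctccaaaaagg
Vhl (chr6:113623744-113624043, plus strand): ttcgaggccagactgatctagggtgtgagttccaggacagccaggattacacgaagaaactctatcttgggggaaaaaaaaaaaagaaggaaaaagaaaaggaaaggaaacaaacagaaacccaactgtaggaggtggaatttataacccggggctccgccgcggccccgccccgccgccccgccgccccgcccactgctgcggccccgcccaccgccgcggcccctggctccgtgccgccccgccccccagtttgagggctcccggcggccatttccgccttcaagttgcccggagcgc
The Bnip3 promoter held 5 matches between positions -117 and -35 from the start. A CACGTG palindrome, which reads as ACGTG on both strands, accounted for 2 of them. Ankrd37 held 2 ACGTG matches, at -241 and -6, and a CACGCGTG stretch that read as GCGTG on both strands. Egln3 held 1 match, at -229, and Vhl held none in this window. Among the members not printed, Hif1a held 3 ACGTG matches and Egln1 held 1 match of each motif. Arnt, whose levels also lay within counting error of each other, held 1 GCGTG match. Of the 3 entries of Kdm3a, 1 held a GCGTG match. Vhl was the only member with an entry that held no match, and whether matches went with the ratios was not tested. Over all 32851 promoters of the same length, 19.6% held ACGTG, 32.4% held GCGTG and 43.8% held at least 1 of them, so a match by itself is common.

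Among the 4 HIF targets described here, Bnip3 differed most between the libraries. Bnip3 (chr7:138890836-138909519, minus strand, GRCm38) had 589 wild-type and 2262 Usb1-null UMIs, levels of 27.1 and 67.8 CPM, a ratio of 2.50 (2.28 to 2.74). Its paralog Bnip3l (chr14:66985239-67008877, minus strand) had 1302 and 2879 UMIs, or 59.9 and 86.2 CPM, a ratio of 1.44 (1.35 to 1.54). Both receptors were thus higher in the Usb1-null library, with only Bnip3 past 1.5-fold. Ankrd37 (chr8:45996902-46005707, minus strand), which encodes an ankyrin repeat protein, was sparse, with 118 and 315 UMIs, or 5.43 and 9.44 CPM, a ratio of 1.74 (1.40 to 2.17). Kdm3a (chr6:71588972-71632990, minus strand), the gene of a histone H3 lysine 9 demethylase that itself needs oxygen, had 3209 and 6605 UMIs, or 148 and 198 CPM, a ratio of 1.34 (1.28 to 1.40). All 4 targets were higher in Usb1-null cells, beyond counting error.

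The 2 prolyl hydroxylase genes, which are HIF targets as well as HIF regulators, were also higher. Egln3 (chr12:54178981-54203860, minus strand) had 281 and 697 UMIs, or 12.9 and 20.9 CPM, a ratio of 1.61 (1.40 to 1.86). Egln1 (chr8:124908587-124949324, minus strand), the gene of the main oxygen-sensing hydroxylase, had 2030 and 3599 UMIs, or 93.4 and 108 CPM, a ratio of 1.15 (1.09 to 1.22). Vhl (chr6:113623959-113631633, plus strand) had 326 and 478 UMIs, or 15 and 14.3 CPM, and its ratio of 0.954 (0.827 to 1.10) did not depart from 1 beyond counting error.

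The subunit genes did not move together. Hif1a (chr12:73901375-73947530, plus strand), the broadly active alpha subunit, had 3137 and 6075 UMIs, or 144 and 182 CPM, a ratio of 1.26 (1.21 to 1.32). Epas1 (chr17:86753700-86833410, plus strand), which encodes the alpha subunit HIF-2alpha, was lower in Usb1-null cells, with 232 and 253 UMIs, or 10.7 and 7.58 CPM, a ratio of 0.710 (0.592 to 0.852). Arnt (chr3:95434388-95497240, plus strand) had 1958 and 2853 UMIs, or 90.1 and 85.5 CPM, a ratio of 0.949 (0.895 to 1.01). The 2 alpha subunits thus differed in opposite directions, and the beta subunit lay within counting error.

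**Figure D1:**
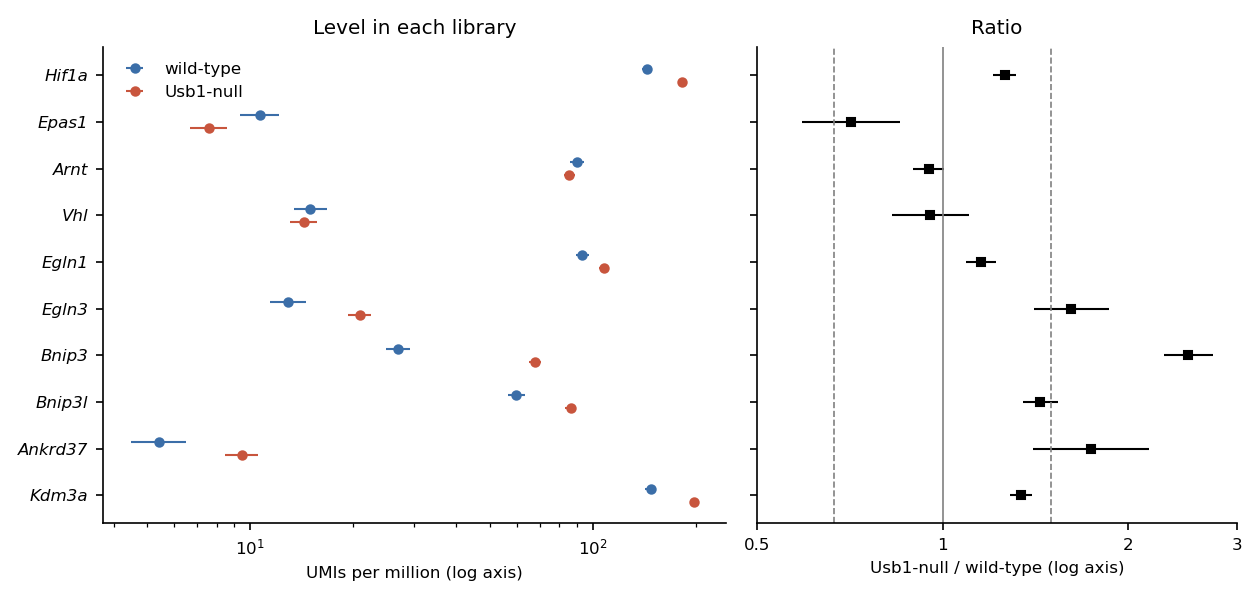
Levels of the 10 genes in the wild-type (blue) and Usb1-null (red) library, in CPM on a log axis (left), and their ratio on a log axis (right), with 95% counting intervals as bars. The solid line marks a ratio of 1 and the dashed lines 1.5-fold. Egln3, Bnip3 and Ankrd37 lie past 1.5-fold, and Epas1 is the lowest ratio at 0.710.

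In all, 3 of the 10 genes (Egln3, Bnip3 and Ankrd37) were at least 1.5-fold higher in Usb1-null cells, against 6.95% of the 15031 genes compared, and 0 were at least 1.5-fold lower, against 5.43%. The members' ratio was above 1 for 7 of 10, against 48.4% of all genes. The interval lay above 1 for 7 of them and below 1 for 1, against 27.7% and 31% of all genes. Their median log2 ratio, with 1 CPM added to both values, was 0.38, while that of all genes was -0.01. Weighting the Usb1-null clusters to their wild-type shares of UMIs left the same 3 genes past 1.5-fold higher and 0 lower, against 6.74% and 4.94% of all genes. Bnip3 then stood at 2.46 and the median of the members at 0.37. Among genes of 5000 to 20000 bases, the length class of Bnip3, Ankrd37 and Vhl, 7.67% were at least 1.5-fold higher, and among genes of 20000 to 50000 bases, the class of Egln3, 6.45%. Thinning each cell to 500 UMIs, which gives all cells equal weight, left Bnip3 at 2.63 but put Ankrd37 at 1.43, Egln3 at 1.41 and Epas1 at 0.656. That left 1 member past 1.5-fold higher and 1 lower, against 8.65% and 8.32% of all genes. Keeping only cells with at least 1000 detected genes put Bnip3l at 1.52 and Epas1 at 0.664, so that 4 members were past 1.5-fold higher and 1 lower, against 7.94% and 4.06% of all genes. The calls of Ankrd37, Egln3, Bnip3l and Epas1 therefore changed under at least 1 of these settings, and that of Bnip3 did not. Thinning also discards UMIs, and its effects on cell weight, depth and sampling were not separated.

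Some members overlap other genes, and whether the counting used strand was not stated in the sources used here. Gm15283, on the strand opposite Hif1a, had 3066 and 6028 UMIs and a ratio of 1.28 (1.23 to 1.34), nearly the counts of Hif1a itself. Gm45507, opposite Bnip3, had 41 and 210 UMIs and a ratio of 3.33 (2.38 to 4.78). Opposite Ankrd37 lie Ufsp2, at a ratio of 0.903, and Lrp2bp, at 0.940, so neither differed the way Ankrd37 did. The annotation also lists pseudogene copies of Vhl and Bnip3l, and how reads shared with them were counted is not known.

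The share of cells with at least 1 UMI was read after thinning every cell to 500 UMIs, because Usb1-null cells held more UMIs. After thinning, Bnip3 was detected in 1.29% of wild-type and 3.33% of Usb1-null cells, against 3.75% and 14.6% of cells with all their UMIs. Kdm3a was detected in 6.89% and 9.67% of thinned cells, Hif1a in 6.75% and 8.05%, and Bnip3l in 3.12% and 4.29%. Of the 10 genes, 8 had a higher thinned share in Usb1-null cells, as did 48.6% of the 15031 genes. Vhl, the closest of the 8, stood at 0.798% and 0.822%, and was lower in Usb1-null cells when cells were thinned to 1000 UMIs (1.42% and 1.38%) or doublets were removed (0.714% and 0.674%), which left 7. The exceptions were Arnt, with 4.25% and 4.04%, and Epas1, with 0.455% and 0.300%. As a reference for RNA found outside its cell type, in a separate random draw of the thinning, the embryonic globin gene Hbb-y was found in 8.95% of wild-type and 1.18% of Usb1-null cells outside the primitive erythroid-like cluster. The median depth of those cells was 1258 and 2309 UMIs before thinning. Free RNA and doublets were not separated in these shares, and the part of free RNA in the member shares was not tested.

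Cells of both libraries were grouped into 19 clusters without using the members or the genes of the pathway lists, and the 16 that held 100 cells or more of each library were compared. A cluster carries the name of a cell class, with the suffix -like, where its raised markers allowed one. Cluster 0 was led by D030025E07Rik, Fendrr and Tnc, cluster 5 by Cdh19, Tfap2b and Sox10, cluster 8, with few UMIs per cell, by Gm15892, Nfe2l3 and Msh4, and cluster 14 by BC006965, Luzp2 and Lmx1a. A member was compared in a cluster where both libraries together held at least 20 of its UMIs. The yolk sac and hepatic endoderm-like cluster held 213 wild-type cells, and 264 with another clustering seed. With that seed the wild-type cells of the hepatocyte-like cluster, which was too small to compare, went from 57 to 0.

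Bnip3 was higher in Usb1-null cells in all 15 clusters with enough UMIs, from 1.80-fold in the second hindbrain and spinal neural progenitor-like cluster to 3.75-fold in neuron-like cells, with a median of 2.47. In 14 of these the interval lay above 1, the exception being intermediate mesoderm-like cells at 2.48 (0.830 to 9.97). Its level in the wild-type library was highest in yolk sac and hepatic endoderm-like cells (58.1 CPM) and next in cardiomyocyte-like cells (48.8 CPM), but only 6 of the 15 other clusters had an interval wholly below that of the first. In the separate draw of the thinning used for shares inside and outside clusters, whose shares differ somewhat from those of the first draw, 1 of 213 wild-type cells of that cluster held a Bnip3 UMI (0.469%), against 1.15% of the other cells, so its wild-type rank rests on few UMIs (18). The same 2 clusters led in the Usb1-null library, at 123 (101 to 149) and 105 (89.3 to 124) CPM. Primitive erythroid-like cells had the lowest Usb1-null level, 35.3 CPM (19.3 to 59.2), and 14.3 CPM in the wild-type library. Of the 8 members measured in at least 10 clusters, 6 were higher in most of their clusters, against 44.1% of 9924 genes.

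Bnip3l was higher in Usb1-null cells in 16 of 16 clusters, in 10 of them with an interval above 1. Its ratios ran from 1.07 in cluster 14 to 2.25 in floor plate and ventral neural tube-like cells, with a median of 1.42. Among the 4844 genes with enough UMIs in all 16 clusters, 5.35% were higher in Usb1-null cells in every one and 5.9% lower in every one. Of the 5 members among them (Hif1a, Arnt, Egln1, Bnip3l and Kdm3a), Bnip3l was the only one in either set. With another clustering seed Hif1a was also higher in every cluster (17 of 17), and with doublets removed Bnip3l was higher in 16 of 17. In primitive erythroid-like cells, where Bnip3l has its known role, it stood at 89.9 (69.1 to 115) CPM in the wild-type and 126 (93.5 to 166) CPM in the Usb1-null library, a ratio of 1.40 (0.948 to 2.07). Outside that cluster its wild-type level was 58.9 CPM, 65.5% of the level inside. Yolk sac and hepatic endoderm-like cells had a similar wild-type level, 93.6 CPM (62.7 to 134).

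Kdm3a was higher in 13 of 16 clusters, in 10 with an interval above 1, and from 0.896-fold in neuron-like cells to 1.63-fold in endothelial-like cells, with a median of 1.27. Floor plate and ventral neural tube-like cells had its highest wild-type level, 225 CPM, and cardiomyocyte-like cells its lowest in both libraries, 104 and 170 CPM. Of the 9924 genes with 20 UMIs in at least 10 clusters, as Kdm3a had, 44.1% were higher in most of these. Ankrd37 reached 20 UMIs in 6 clusters, too few for that share, and was higher in 5 of them. Its largest ratio was 3.19 (1.32 to 9.33), in the first hindbrain and spinal neural progenitor-like cluster, from 6 and 32 UMIs, and the exception was the midbrain and midbrain-hindbrain-like cluster at 0.920.

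**Figure D2:**
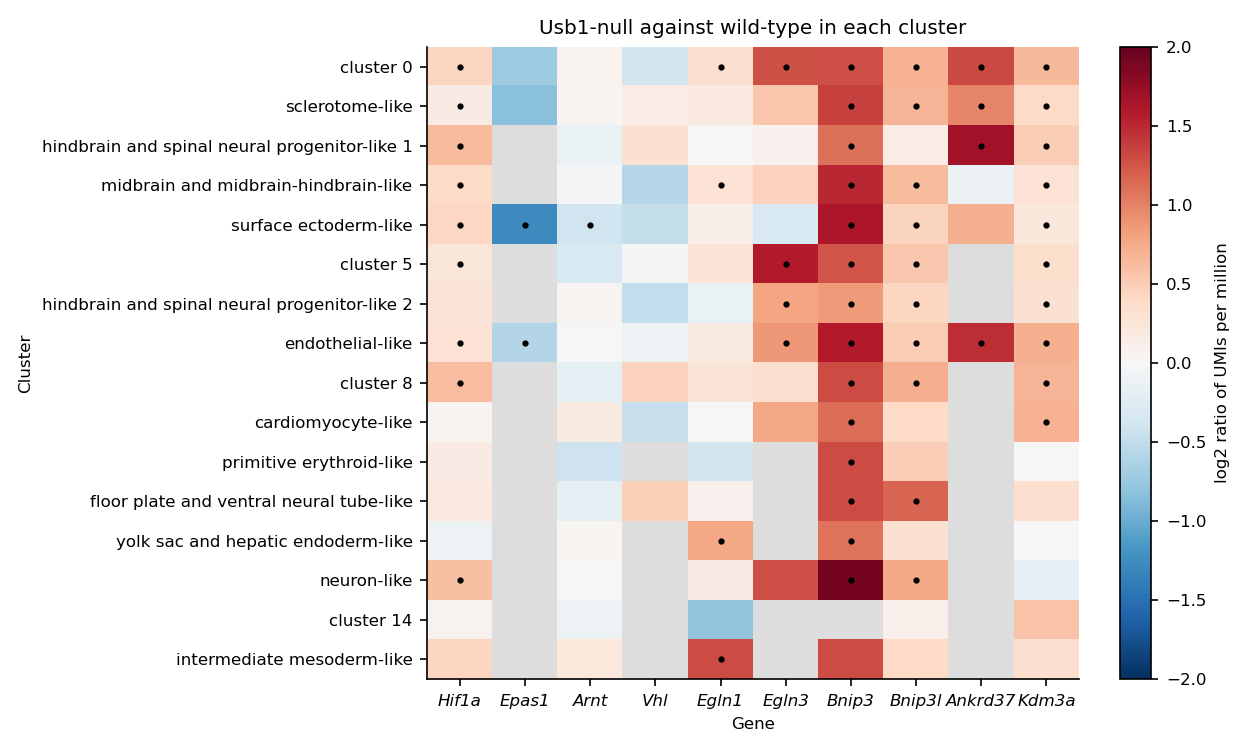
Log2 ratio of CPM, Usb1-null over wild-type, for each of the 10 genes (columns) in the 16 compared clusters (rows). Red is higher and blue lower in Usb1-null cells, a dot marks a 95% counting interval that does not hold a ratio of 1, and grey marks fewer than 20 UMIs. Bnip3 is red in all 15 clusters shown and Bnip3l in all 16, while Epas1 is blue in all 4.

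Egln3 had its highest level in endothelial-like cells, at 34.4 CPM (25.5 to 45.5) in the wild-type and 63.0 CPM (53.2 to 74.2) in the Usb1-null library, 3.01 and 3.55 times its level in all other cells. In the wild-type library, surface ectoderm-like cells did not differ from them beyond the intervals, at 30.2 CPM (22.8 to 39.3), and held more of its UMIs (56 against 49). It was higher in Usb1-null cells in 10 of 11 clusters, up to 2.99-fold in cluster 5, where 18 and 75 UMIs gave an interval of 1.77 to 5.32. Surface ectoderm-like cells were the exception, with 24.4 CPM in the Usb1-null library, a ratio of 0.807 (0.560 to 1.17). Egln1 was more evenly spread. It was higher in 11 of 16 clusters but with an interval above 1 in only 4, and its lowest levels in the Usb1-null library were in primitive erythroid-like cells, at 37.8 CPM against a median of 103 over clusters. In yolk sac and hepatic endoderm-like cells it stood at 84.0 and 144 CPM, a ratio of 1.71 (1.12 to 2.72). Vhl reached 20 UMIs in 11 clusters, was higher in 4, and in none of them left 1 out of its interval. Of the 9924 genes with 20 UMIs in at least 10 clusters, as these 3 genes had, 44.1% were higher in most of them.

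Hif1a was higher in Usb1-null cells in 15 of 16 clusters, with an interval above 1 in 9. Of the 4844 genes measured in all 16 clusters, 17.9% were higher in at least 14. The largest ratio was 1.56 (1.34 to 1.81) in the first hindbrain and spinal neural progenitor-like cluster, which had the lowest wild-type level, 109 CPM. In cardiomyocyte-like cells, the highest of the wild-type clusters, the levels were 269 (236 to 305) and 280 (253 to 309) CPM, and in yolk sac and hepatic endoderm-like cells they were 265 and 247 CPM. The 2 clusters with the most wild-type Hif1a thus showed no difference beyond counting error, with ratios of 1.04 (0.886 to 1.23) and 0.933 (0.721 to 1.22). Cluster 8, the third in the wild-type and the highest in the Usb1-null library, stood at 192 and 296 CPM, a ratio of 1.54 (1.24 to 1.92). Arnt was higher in 7 of 16 clusters, with no interval above 1 and 1 below it, in surface ectoderm-like cells at 0.759 (0.620 to 0.930). It was higher in 11 of 17 clusters with doublets removed and in 11 of 20 at a doubled clustering resolution. Its highest level in both libraries was in primitive erythroid-like cells, at 158 (130 to 191) and 118 (87.0 to 158) CPM.

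Epas1 was by far most frequent in endothelial-like cells, which express it in the embryo. They held 102.6 CPM (86.6 to 121) in the wild-type and 68.7 CPM (58.4 to 80.3) in the Usb1-null library, 24.2 (18.4 to 32.0) and 22.5 (17.3 to 29.3) times the level of all other cells. The ratio within these cells was 0.670 (0.531 to 0.844). Surface ectoderm-like cells came next in the wild-type library, with 28 and 18 UMIs, or 15.1 and 6.27 CPM, a ratio of 0.415 (0.216 to 0.777). Epas1 was lower in all 4 clusters with 20 UMIs. The shares of endothelial-like cells among all cells were 5.88% and 6.05%, and the median log2 ratio of 10 endothelial markers was -0.06, with 3 of them above 1 and none past 1.5-fold. Of these markers, only Plvap, at 0.705, came as low as Epas1. Other cells carried Epas1 at 4.13% and 4.45% of the endothelial-like level, above the 0.856% and 1.5% of Cdh5, an endothelial cadherin gene.

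**Figure D3:**
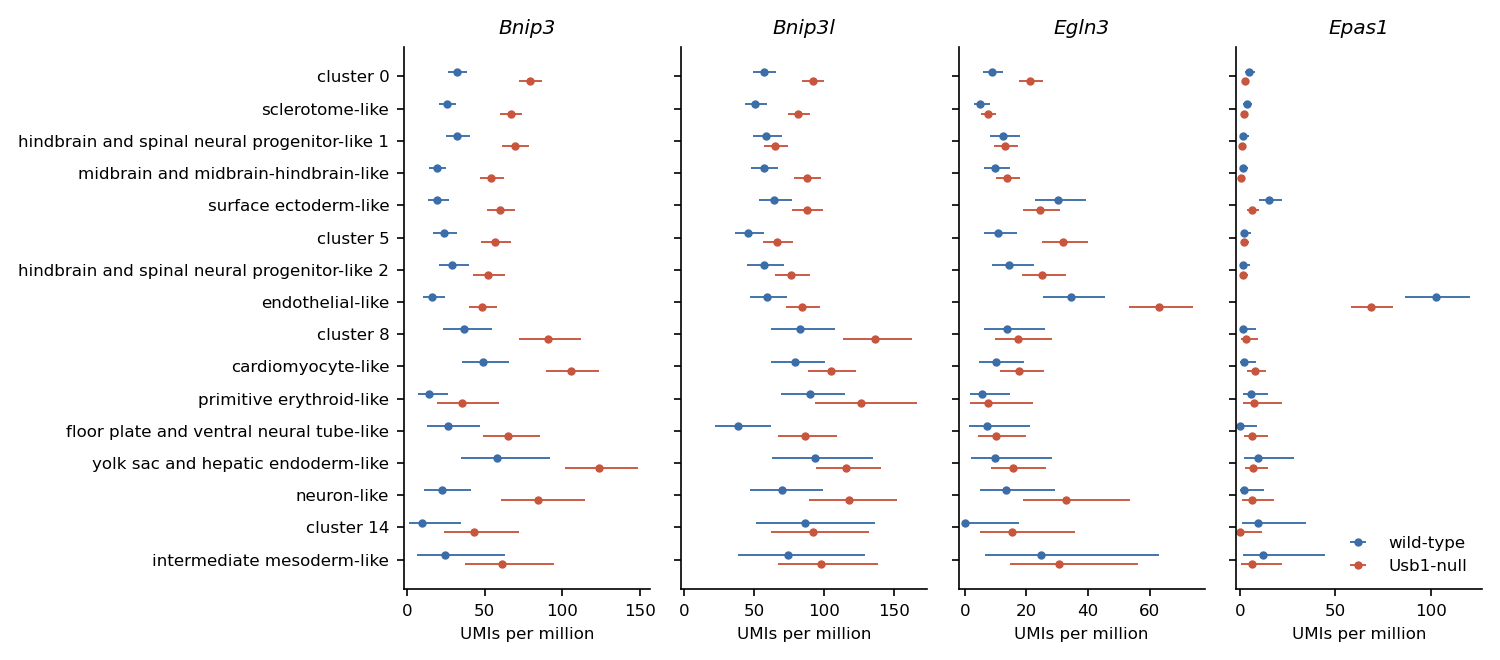
Levels of Bnip3, Bnip3l, Egln3 and Epas1 in the 16 compared clusters, in CPM, in the wild-type (blue) and Usb1-null (red) library, with exact 95% Poisson intervals as bars. The Bnip3 points of the Usb1-null library lie to the right of the wild-type points in every cluster, and Epas1 stands out in endothelial-like cells, at 102.6 and 68.7.

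The rest of the pathway was read from gene lists, over genes with at least 100 UMIs. Of all such genes, 6.95% were at least 1.5-fold higher, 5.43% were lower by that much and 48.4% had a ratio above 1. The lists were chosen with earlier results of these data known, so likeness between their values and those of the members is not an independent check. Among 28 other HIF target genes, 9 were at least 1.5-fold higher, 0 were lower by that much and 26 had a ratio above 1, with a median log2 ratio of 0.34, close to that of the 10 members. Stc2, which encodes the hormone stanniocalcin 2, had the highest log2 ratio with 1 CPM added, with 193 and 772 UMIs, or 8.88 and 23.1 CPM, while the sparser Bhlhe40 (26 and 122 UMIs) had the highest ratio without it, 3.05 (1.99 to 4.86). Plod1, a collagen lysyl hydroxylase gene, had the lowest, with 828 and 969 UMIs, or 38.1 and 29.0 CPM. Among 21 glycolysis genes, 6 were past 1.5-fold higher and 1 lower, and the median was 0.04. Pfkfb3, whose enzyme makes an activator of phosphofructokinase, was the highest (478 and 1570 UMIs, 22.0 and 47.0 CPM), and Gapdh the lowest (5763 and 5334 UMIs, 265 and 160 CPM). Of the glycolysis genes, 11 had a ratio above 1.

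None of the 4 hydroxylase and subunit genes outside the 10 was past 1.5-fold, and their ratios lay within the range of the 10. Of the 4, Hif3a was at 1.10 (0.894 to 1.35) and Hif1an, the gene of the asparaginyl hydroxylase that blocks HIF coactivator binding, at 0.984 (0.899 to 1.08). Arnt2, the neural paralog of Arnt, was at 0.862 (0.814 to 0.912), and Egln2, the prolyl hydroxylase gene that is not known as a HIF target, at 0.767 (0.683 to 0.860). Among the 4 partners of Vhl in its ubiquitin ligase, Eloc was at 1.12 (1.04 to 1.20), Cul2 at 1.07 (1.00 to 1.14) and Rbx1 at 0.777 (0.730 to 0.828). Elob, the short gene of elongin B, was at 0.587 (0.545 to 0.631), the only partner past 1.5-fold. Medians of the 2 lists were -0.12 and -0.13.

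The ratios of Bnip3 and Bnip3l were above those of the other mitophagy and autophagy genes listed. Gene length, which went with the ratio over all genes, was not matched in this comparison. Of 20 other mitophagy and autophagy genes, 0 were at least 1.5-fold higher and 2 were lower by that much, against 6.95% and 5.43% of all genes. A ratio above 1 was found for 5 of them, against 48.4% of all genes, and their median log2 ratio was -0.13. Nbr1, an autophagy receptor gene, was the highest at 1.08 (1.00 to 1.15) and Map1lc3a, which encodes an LC3 protein, the lowest at 0.457 (0.354 to 0.588). Of 14 other JmjC demethylase genes, the family of Kdm3a, 11 had a ratio above 1 and 0 were past 1.5-fold in either direction, with a median of 0.16. Kdm7a was the highest at 1.35 (1.28 to 1.41) and Kdm5c the lowest at 0.794 (0.759 to 0.831). Of 9 HIF coactivators and modulators, 0 were past 1.5-fold higher and 2 past it lower, with a median of -0.01. Ep300, a histone acetyltransferase gene, stood at 1.21 (1.16 to 1.26) and Cited4 at 0.309 (0.228 to 0.417).

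**Figure D4:**
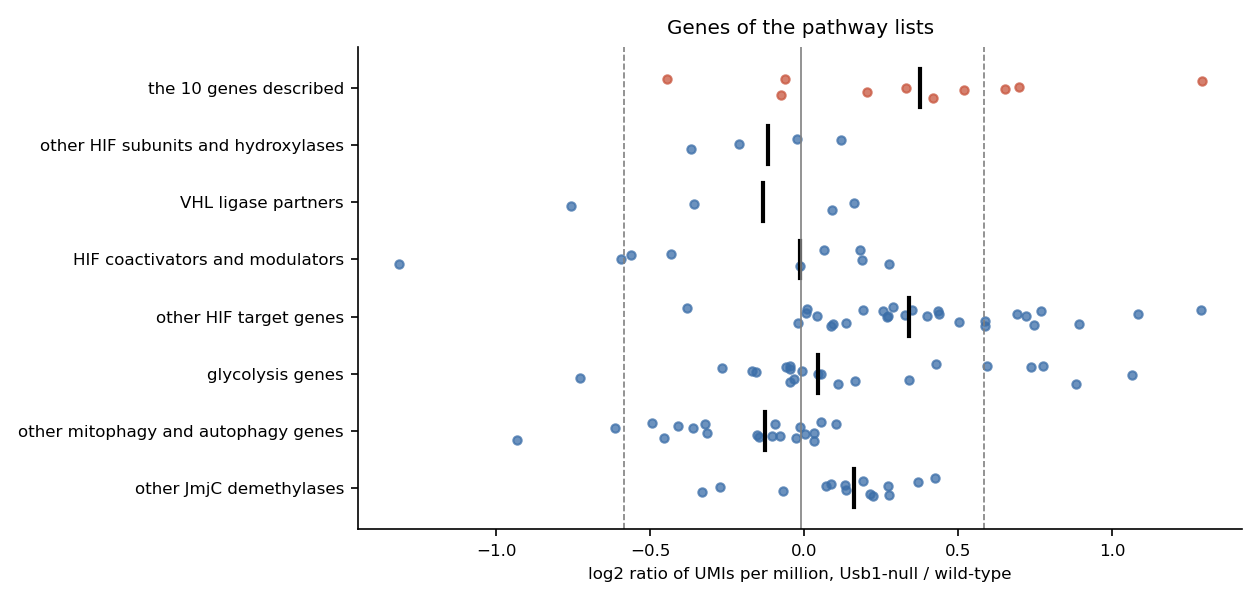
Log2 ratio of each gene with at least 100 UMIs (points, with 1 CPM added to both values), by list, with the list median as a black bar. The solid line is the median of all genes (-0.01) and the dashed lines mark 1.5-fold. The 10 genes described and the other HIF target genes have medians of 0.38 and 0.34, and the other mitophagy and autophagy genes lie mostly to the left of the solid line.

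Lists of other processes and cells were read beside these, and their part in the member values was not tested. Over all genes, 6.95% were at least 1.5-fold higher and 5.43% were lower by that much. Of 19 p53 target genes, 9 were at least 1.5-fold higher and 0 lower, with a median log2 ratio of 0.55, led by Eda2r at 4.02 (3.40 to 4.76) and with Bax lowest at 0.707. Of 13 genes induced by tissue dissociation, 4 were at least 1.5-fold higher and the median was 0.07, from Dusp1 at 1.62 to Jun at 0.750. All 10 genes of the mature liver list with enough UMIs were higher, with 141 wild-type and 3035 Usb1-null UMIs summed over the whole list. By log2 ratio with 1 CPM added, Alb was the highest of these (21 and 1349 UMIs) and Gnmt the lowest (33 and 105 UMIs). Mup3, Serpina3k and Cyp3a11 had 0 wild-type UMIs, and 187, 116 and 101 Usb1-null UMIs. Of 9 primitive erythroid markers, 8 were past 1.5-fold lower, from Hbb-y at 0.169 to Alas2 at 1.08, and the summed level was 866 and 219 CPM. The highest and lowest endothelial markers were Cdh5 at 1.14 and Plvap at 0.705. Of placenta and decidua genes, 3 had enough UMIs and none was past 1.5-fold, from Dcn at 0.776 to Tfap2c at 1.06. Of the others in that list, Gcm1 had 14 and 41 UMIs, a ratio of 1.91 (1.02 to 3.79), Prl2c2 and Prl8a2 had at most 1 UMI in either library, and Tpbpa, Prl3d1 and Ctsq had 0 in both. The adult globin gene Hbb-bs had 90 and 81 UMIs, a ratio of 0.586. With the clusters weighted to their wild-type shares, its log2 ratio turned from -0.59 to 0.13, and the median of the erythroid markers moved from -1.53 to -0.47. Without the erythroid-like and hepatocyte-like clusters, Bnip3 stood at 2.49, Ankrd37 at 1.78 and Egln3 at 1.59, so the same 3 stayed past 1.5-fold higher and 0 were lower by that much, against 6.89% and 5.04% of all genes.

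Genes whose pattern over cell types was most like that of each member were taken from Pearson correlations of log2(CPM + 1) over 32 sums, 16 clusters in each library. These sums share libraries and depth, so the values describe and do not test, and genes that differ between the libraries in the same direction correlate for that reason as well. Of the 9597 genes with enough UMIs, the most like Bnip3 was Vegfa, the vascular growth factor gene (r = 0.81), then Gm26672 (0.80) and Hk2, a hexokinase gene (0.79). Within the 16 wild-type sums, the values for Vegfa and Hk2 were 0.54 and 0.56, and within the Usb1-null sums 0.81 and 0.48, each at or below the pooled value. Egln1 was most like Pfkfb3 (0.78), then Ikbip (0.76) and Cmtm7 (0.72). With Pfkfb3 it reached 0.91 within the wild-type and 0.86 within the Usb1-null sums, and 0.87 and 0.60 without the primitive erythroid-like cluster, where both genes were low.

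Hif1a was most like Gm15283 (0.88), the gene on its opposite strand, then Fyttd1 (0.76) and Add3 (0.71). Arnt was most like Atp2b4 (0.85), Add1 (0.82) and Cbfa2t3 (0.82), and each of these values was above 0.8 in both libraries taken alone. Bnip3l was most like Sod2, the mitochondrial superoxide dismutase gene (0.70), Dnm1l, the mitochondrial fission gene (0.69), and Gm15283 (0.68). Within the wild-type and Usb1-null sums taken alone, these were 0.65 and 0.62 for Sod2, 0.40 and 0.47 for Dnm1l, and 0.55 and 0.67 for Gm15283. Kdm3a was most like Nfxl1 (0.76), Hnrnpd (0.73) and Zfp740 (0.72), and Vhl, with few UMIs, was most like Samd8 (0.69), Cldn12 (0.67) and Thap12 (0.67). Between the members themselves, the highest values were 0.68 for Hif1a with Bnip3, 0.65 for Egln3 with Ankrd37 and 0.63 for Hif1a with Bnip3l.

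**Figure D5:**
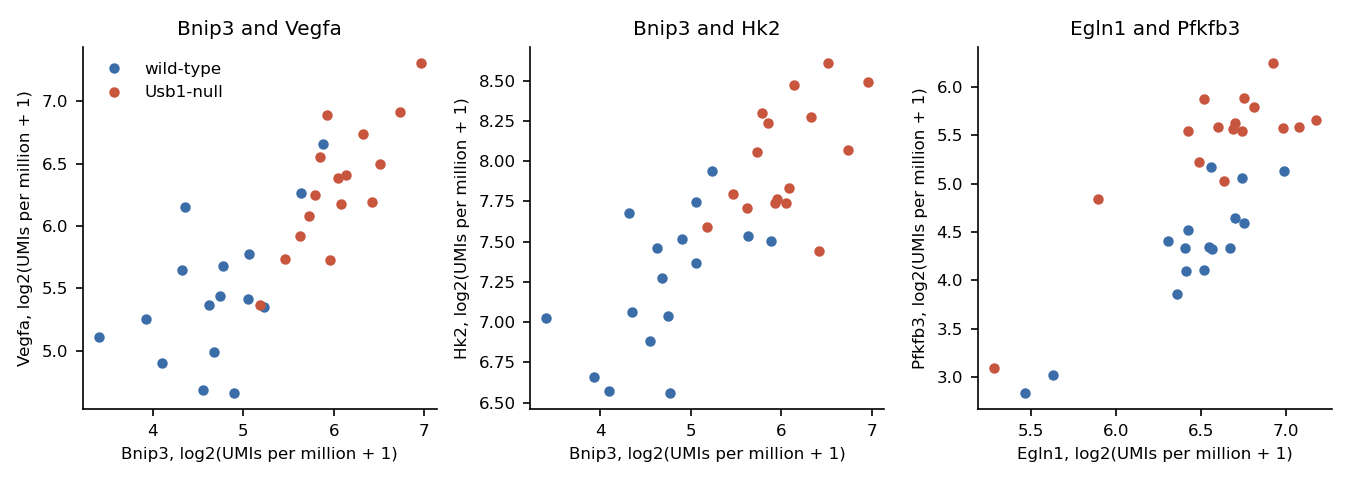
Levels of Bnip3 against Vegfa and Hk2, and of Egln1 against Pfkfb3, as log2(CPM + 1), with 1 point per compared cluster and library (blue wild-type, red Usb1-null). The axes do not start at 0. In the Bnip3 panels each cluster's Usb1-null point lies above and to the right of its own wild-type point, although the points of the libraries overlap, and in the Egln1 panel the lowest points include the primitive erythroid-like clusters of both libraries.

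Cells with a Bnip3 UMI were then compared with cells without one inside each library, within the same cluster and the same of 5 bins of UMIs per cell. There were 568 such wild-type and 1905 such Usb1-null cells. Of these, 548 and 1629 held exactly 1 Bnip3 UMI, so a cell in this class need not express the gene, and the part of free RNA was not tested. In addition, 3 or more Bnip3 UMIs were found in 1 wild-type and 59 Usb1-null cells, which differed in depth. Egln1 was higher in cells with a Bnip3 UMI in both libraries, at 1.35 (1.13 to 1.62) in wild-type and 1.16 (1.07 to 1.26) in Usb1-null cells. No other member had an interval above 1 in either library. The share of all genes with such an interval was not computed, so whether this count is unusual is not known. In this comparison 5.99% of 15030 genes were at least 1.5-fold higher in the wild-type and 1.25% in the Usb1-null library, and none of the members was. Bnip3l stood at 1.22 (0.962 to 1.56) and 1.01 (0.918 to 1.11), and Hif1a at 1.00 (0.851 to 1.18) and 1.05 (0.986 to 1.13). Epas1 was lower in Usb1-null cells with a Bnip3 UMI, at 0.326 (0.197 to 0.540), from 16 UMIs. In wild-type cells it stood at 0.849 (0.439 to 1.64), from 9 UMIs, and with doublets removed its ratio was 1.23 there and 0.402 in the Usb1-null library. Summed over their lists, other HIF target genes stood at 1.11 (1.06 to 1.16) and 1.08 (1.06 to 1.10), and glycolysis genes at 1.08 (1.04 to 1.12) and 1.06 (1.04 to 1.07). VHL partners stood at 1.11 (0.994 to 1.25) and 1.04 (0.986 to 1.11), and other HIF subunits and hydroxylases at 1.10 (0.947 to 1.28) and 0.964 (0.894 to 1.04). Other JmjC demethylases stood at 1.02 (0.976 to 1.06) and 1.02 (1.004 to 1.041), and HIF coactivators and modulators at 0.979 (0.932 to 1.03) and 1.00 (0.979 to 1.03). The summed mitophagy and autophagy genes stood at 0.965 (0.898 to 1.04) and 0.987 (0.954 to 1.02).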

How the data were processed

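Per the labels and file headers, the authors barcoded dissociated whole embryos with 10x Genomics 3′ chemistry and deposited, for each library, raw UMI counts per gene and barcode with no normalisation. The processing notes name Cell Ranger 2.1.1 and mm10, and the matrix headers Cell Ranger 6.1.2. The study's methods also name version 6.1.2, for alignment to the mouse transcriptome. Whether introns or strand were used was not stated in the sources used here. Every barcode held at least 500 UMIs.

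Cells with 200 to 6000 genes and under 30% mitochondrial UMIs were kept, and counts were summed by library or cluster. Clusters came from 2000 variable genes (members, list genes, mitochondrial, ribosomal, Xist, Tsix and Y-linked genes left out), 30 principal components, Harmony rewritten in NumPy 2.4.6, 15 neighbours and Leiden (leidenalg 0.10.2), in Scanpy 1.11.5 and Python 3.11.15, with the resolution giving nearest to 19 clusters. A name needed at least 3 markers with 10 UMIs and a 2-fold excess, and names rebuilt here can differ from the study's. The midbrain-like cluster also raised forebrain markers. Doublets called by Scrublet at an expected 10% (1025 wild-type, 560 Usb1-null cells) were kept, and removed in an alternative.

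Intervals are exact 95% Poisson, binomial (Clopper-Pearson) or conditional binomial intervals (SciPy 1.17.1). The comparison by Bnip3 UMI used Mantel-Haenszel rate ratios over cluster and depth strata. Calculations were tested on simulated counts. Genes and lists were chosen with earlier results of these data known. Named genes were the 10 members, the highest and lowest log2 ratio of each list, every subunit, hydroxylase and VHL partner, the 3 genes most like each member with 300 UMIs per library, and the 3 leading genes of unnamed clusters. A few others (overlapping genes, Hbb-y as an erythroid reference, Bhlhe40, absent placental genes and liver genes without wild-type UMIs) were added after their values were seen. Positions are from GENCODE M21 (GRCm38). Alternatives changed the cell filter, doublets, scaling, depth, cluster weights and gene minimum.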

Additional observations from a re-analysis of the deposited data

Results flagged for a closer look

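For 3 members, the clusters with the lowest and highest ratio lay on opposite sides of 1 with counting intervals that did not overlap. With 1 library per genotype, these differences between clusters were not tested. Egln3 stood at 0.807 (0.560 to 1.17) in surface ectoderm-like cells and 2.99 (1.77 to 5.32) in cluster 5, ratios 3.71-fold apart, and 3 clusters had an interval wholly above that of the surface ectoderm-like cells. Kdm3a stood at 0.896 (0.663 to 1.21) in neuron-like cells and 1.63 (1.35 to 1.98) in endothelial-like cells, 1.82-fold apart, with 5 clusters wholly above. Hif1a stood at 0.933 (0.721 to 1.22) in yolk sac and hepatic endoderm-like cells and 1.56 (1.34 to 1.81) in the first hindbrain and spinal neural progenitor-like cluster, 1.67-fold apart, with 2 clusters wholly above. With another clustering seed Hif1a was higher in Usb1-null cells in 17 of 17 clusters, so no cluster lay below 1 there. The pairs were picked as extremes of 11 or 16 clusters.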

How the results depend on the processing

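Of 80 recomputed member ratios, 78 moved by less than their main counting interval, and the ratio of no member but Vhl (0.942 to 1.02) crossed 1. Thinning to 500 UMIs moved Hif1a to 1.21 and Kdm3a to 1.42. Bnip3 ranged from 2.45 to 2.63, Bnip3l from 1.39 to 1.52, Ankrd37 from 1.43 to 1.93, Egln3 from 1.41 to 1.67 and Epas1 from 0.656 to 0.716. The number of members past 1.5-fold was 5 with at least 1000 genes per cell (4 higher and 1 lower, against 7.94% and 4.06% of all genes), against 3. The glycolysis median was then 0.14, and the coactivator median was -0.19 after thinning. With 10 depth bins or without doublets, 2 members had an interval above 1 in Usb1-null cells with a Bnip3 UMI, against 1, as Arnt joined Egln1 at 1.11. No share of all genes was computed for that criterion. The causes were not tested. The gene minimum cannot change a single ratio. The correlations within libraries and without the erythroid-like cluster were added after seeing the data. No paired analysis was possible because each genotype had 1 library, and for the same reason no library could be left out. Ankrd37, Epas1, Egln3 and Vhl are limited by few UMIs per cluster.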
